A study of Mus musculus with 6 samples.

Results

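The genes described are 8 of the 41388 genes in the deposited tables: the phospholipase C genes Plcg2 and Plcb2, the class I phosphoinositide 3-kinase (PI3K) catalytic genes Pik3cg, Pik3cd and Pik3cb, the regulatory subunit genes Pik3r1 and Pik3r5, and the inositol lipid phosphatase gene Inpp5d. They were taken as a given list by matching the Ensembl identifiers of the tables to mouse symbols, and all 8 were found once. All 8 passed the filter on low counts, with 164 to 5047 counts in a library, so depth did not limit their detection.

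Phospholipase C splits the membrane lipid PIP2 into diacylglycerol and inositol trisphosphate, and the latter opens calcium channels of the endoplasmic reticulum. The store that is emptied in this way is what store-operated calcium entry refills. Class I PI3K adds a phosphate to the same lipid to make PIP3, which recruits kinases and guanine nucleotide exchange factors to the membrane. In neutrophils both branches lie below chemoattractant, Fc and integrin receptors.

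The cells were bone marrow neutrophils of C57BL/6 mice. All of them carried the voltage-sensitive dye DIBAC4(3) at 250 nM and received 100 nM of the calcium ionophore ionomycin. The groups are 3 libraries of cells sorted as depolarized and 3 of cells sorted as polarized, each from 20000 cells collected 2 to 4 minutes after ionomycin, so both groups are stimulated and no unstimulated library is analysed here. The libraries form pairs, named A, B and C, by the code that ends their titles. An ionophore lets calcium through membranes without a receptor. The labels used here state neither the age of the mice nor whether a library pools several.

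Library totals ran from 16904969 to 20381489 counts. The cells carried their label's markers: the summed level of 10 mature neutrophil genes was 184214 to 224453 CPM (counts scaled to a common library total) in polarized and 163834 to 183728 CPM in depolarized libraries. S100a8, S100a9 and Retnlg made up most of that sum, and 0 of the 10 genes were called in either direction. Csf3r ran against the sum, at 1496 to 1680 CPM in polarized and 2191 to 2403 CPM in depolarized libraries. The summed level of 10 genes of the early neutrophil stage was 2777 to 5492 CPM in polarized and 1116 to 2387 CPM in depolarized libraries, with 9 of the 10 called lower in depolarized cells by edgeR with the pairs as a block, which called 0.241% of all tested genes lower. Without the block 0 of the 10 were called, as for all genes tested. Markers of B and plasma cells summed to 5.76 to 78.9 CPM and 7.40 to 35.0 CPM, those of T and NK cells to 23.3 to 28.8 and 16.4 to 23.1 CPM (1 of 3 tested called lower, and 0 without the block), those of eosinophils and basophils to 36.9 to 424 and 45.3 to 167 CPM, and those of erythroid cells and platelets to 32.0 to 46.5 and 20.5 to 74.9 CPM. For monocytes and macrophages the sums were 179 to 223 CPM in polarized and 268 to 303 CPM in depolarized libraries, of which Csf1r and Adgre1 (59.1 to 129.8 CPM) made up most. Csf1r was higher in every depolarized library (157 to 168 CPM) than in any polarized one (102 to 112 CPM). Other markers of that list, at 12.6 CPM or less, ran the other way: Ccr2, C1qa, C1qb and C1qc were each lower in every depolarized library than in any polarized one, as with Ccr2 at 1.12 to 1.55 CPM in polarized and 0 to 0.532 CPM in depolarized libraries. Over all tested genes 3.14% were lower in every depolarized library than in any polarized one, and 7.28% were higher. Cx3cr1 stayed at 0.730 CPM or less, and 0 of the list's 7 tested genes were called. No marker in these lists was at 0 in all libraries. The part of any of these cells in the values below was not tested, and in bulk libraries fewer expressing cells and less RNA per cell cannot be told apart.

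Levels of different genes were compared as RPKM, that is CPM per kilobase of the exon length in the tables. Pik3cg, which encodes the catalytic subunit p110 gamma that is driven by G protein beta-gamma subunits, was the most abundant of the 8 in 6 of 6 libraries, at 21.4 to 38.8 RPKM. Inpp5d, Plcg2 and Pik3cd followed at overlapping levels of 19.8 to 30.5, 18.8 to 30.3 and 16.2 to 26.0 RPKM, and their order changed between libraries. Pik3r5 (8.04 to 12.6 RPKM), Pik3r1 (3.14 to 5.43), Plcb2 (1.82 to 3.98) and Pik3cb (1.16 to 2.63) took the fifth to eighth places in that order in all 6. Ranges of the neighbouring pairs Pik3r1 and Plcb2, and Plcb2 and Pik3cb, overlapped across libraries although the order within each library did not change. The range from Pik3cg to Pik3cb was thus wide: their means over 6 libraries were 32.8 and 1.77 RPKM.

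The start sites of the most and least abundant genes differ in base composition, and the 250 bases before them are shown for Pik3cg and Inpp5d, which had the highest mean RPKM, and for Pik3cb, which had the lowest. Sequences are those of RefSeq on GRCm38.p6, read 5′ to 3′ in the direction of the gene, and the window ends at the base before the start site (position -1). Capitals mark AGGAAGT on either strand, a 7-letter string of the kind bound by ETS factors such as PU.1, the master regulator of myeloid genes. The windows are chr12:32208660-32208909 (minus strand) for Pik3cg, chr1:87620062-87620311 (plus strand) for Inpp5d and chr9:99140212-99140461 (minus strand) for Pik3cb.
Pik3cg: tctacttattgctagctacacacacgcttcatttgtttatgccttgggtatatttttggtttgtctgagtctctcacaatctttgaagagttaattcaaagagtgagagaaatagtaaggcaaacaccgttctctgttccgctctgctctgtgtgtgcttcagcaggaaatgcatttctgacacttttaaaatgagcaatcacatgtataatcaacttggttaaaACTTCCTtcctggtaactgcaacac
Inpp5d: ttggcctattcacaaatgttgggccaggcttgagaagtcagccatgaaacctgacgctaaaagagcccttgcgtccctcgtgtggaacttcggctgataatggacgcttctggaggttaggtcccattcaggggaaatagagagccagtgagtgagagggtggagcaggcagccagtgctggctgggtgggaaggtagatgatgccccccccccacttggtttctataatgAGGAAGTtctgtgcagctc
Pik3cb: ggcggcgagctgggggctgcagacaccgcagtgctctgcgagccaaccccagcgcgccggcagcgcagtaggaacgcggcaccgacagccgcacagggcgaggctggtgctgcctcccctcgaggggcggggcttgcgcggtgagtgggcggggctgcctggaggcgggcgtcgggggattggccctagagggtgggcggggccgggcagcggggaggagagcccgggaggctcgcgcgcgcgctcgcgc

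The string AGGAAGT began at position -25 in Pik3cg, where it lies on the opposite strand, and at position -19 in Inpp5d. Plcb2 was the only other of the 8 with it in its window, at position -219. Counted by window, 4 of the 12 windows of the 8 genes hold it, 2 of them overlapping windows of Pik3cg, and over all 32851 windows of this length the share was 7.69%. The string GGGCGG, the core of the GC box read by SP1, occurred 3 times in the Pik3cb window, and 5 of the 8 genes (Plcg2, Pik3cd, Pik3cb, Pik3r1 and Pik3r5) hold it in at least 1 of their windows. By window it was 6 of 12, against 32.7% of all windows. No gene among the 8 had both strings. GC content was 38.8% for Pik3cg (44.0% before its other annotated start, where AGGAAGT occurs 2 times), 54.4% for Inpp5d and 78.0% for Pik3cb. It was 59.6% for Plcg2, 61.6% for Pik3r5 and 62.0% for Plcb2. The windows of Pik3cd had 53.6%, 66.0% and 54.0%, and those of Pik3r1 76.4% and 42.4%. The strings did not follow level throughout. Plcb2, next to lowest in RPKM, held AGGAAGT, and the more abundant Plcg2 and Pik3cd held GGGCGG. Both strings were chosen after levels and sequences had been seen, and a match describes letters only.

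None of the 8 genes passed the test between depolarized and polarized cells. Fitted log2 fold changes, given throughout as depolarized minus polarized, lay between -0.32 for Pik3cb and 0.22 for Pik3cg, and 6 of 8 were above 0. The median was 0.15, against -0.00218 for all 9971 tested genes. Without pair C the median was -0.08 and 3 of 8 were above 0. In edgeR's quasi-likelihood fit, blocked on pair, 0 of the 8 were called higher and 0 lower at an adjusted p under 0.05, where 0.0802% of all tested genes were called higher and 0.241% lower. At an unadjusted p under 0.05 the count among the 8 was also 0, and DESeq2 called 0 with and without the block. Each of the 8 had an edgeR adjusted p of 1.

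**Figure D1:**
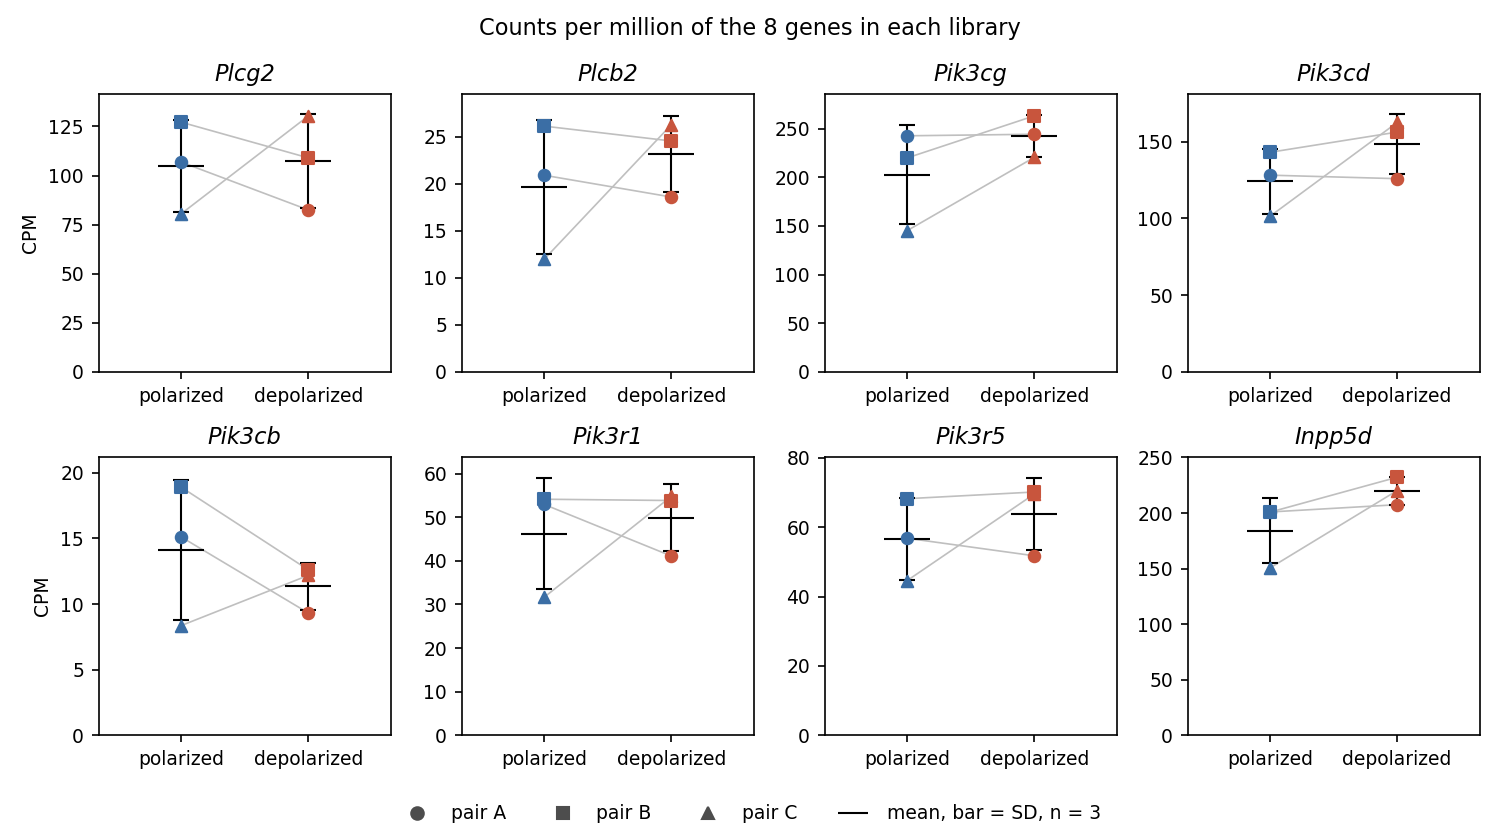
CPM of each gene (vertical axes, each from 0) in the polarized and depolarized libraries. Symbols mark the pairs, grey lines join libraries of a pair, and black bars give mean and SD of 3 libraries. The triangle of the polarized library of pair C is the lowest of the 6 points in all 8 panels, at 145 CPM for Pik3cg and 8.36 CPM for Pik3cb.

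Plcg2 encodes phospholipase C gamma 2, which is activated by tyrosine kinases below Fc receptors and integrins. Polarized libraries held 107, 127 and 80.6 CPM of it and depolarized libraries 82.5, 109 and 130.3 CPM, here and below always in the order A, B, C. The groups overlapped fully, and the depolarized library was lower in pairs A and B and higher in pair C. The means were 105 ± 23.4 CPM (SD, n = 3) and 107 ± 23.9 CPM and the fitted value was -0.04 ± 0.19 (SE), and without pair A or B the sign turned (0.10 and 0.08). Plcb2, the phospholipase C beta isoform of blood cells that responds to G proteins, was at 20.9, 26.1 and 12.0 CPM in polarized and 18.6, 24.5 and 26.3 CPM in depolarized libraries. Its polarized value of pair C stood below the other 5, which lay within 18.6 to 26.3 CPM. The fitted value was 0.22 ± 0.23 (SE), with pair differences of -0.11, -0.13 and 0.90, and it was -0.12 without pair C.

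Among the catalytic PI3K genes, Pik3cg and Pik3cd were fitted slightly above 0 and Pik3cb below. Pik3cg was at 243, 219.9 and 145 CPM in polarized and 244, 263 and 220.4 CPM in depolarized libraries. The depolarized library was the higher one in 3 of 3 pairs, but the groups overlapped, since polarized A exceeded depolarized C. The log2 fold change was 0.22 ± 0.17 (SE), or 1.17-fold with a 95% interval of 0.903 to 1.51. Pik3cd encodes p110 delta, the leukocyte isoform coupled to tyrosine kinase receptors. It was at 128, 143 and 101 CPM in polarized and 126, 156 and 162 CPM in depolarized libraries, a fold of 1.14 with a 95% interval of 0.882 to 1.48. On scaled log2 CPM Pik3cd was higher in 3 of 3 pairs (0.04, 0.09 and 0.45), though in unscaled CPM pair A was slightly lower. Pik3cb, which encodes the widely expressed p110 beta, was at 15.1, 18.9 and 8.36 CPM in polarized and 9.32, 12.6 and 12.2 CPM in depolarized libraries. Depolarized cells held less of it in pairs A and B (-0.63 and -0.62 on the log2 scale) and more in pair C (0.31). The means were 14.1 ± 5.34 and 11.4 ± 1.79 CPM (SD, n = 3), and the fit gave -0.32 ± 0.24 (SE) on the log2 scale.

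The regulatory and phosphatase genes gave small differences as well. Pik3r1, which encodes p85 alpha and its shorter forms and holds p110 alpha, beta and delta in check until a phosphotyrosine is bound, was at 52.9, 54.1 and 31.7 CPM in polarized and 41.1, 53.8 and 54.8 CPM in depolarized libraries. Its log2 fold change was 0.07 ± 0.20 (SE) and became -0.17 without pair C. Pik3r5 encodes p101, the partner that couples p110 gamma to G protein beta-gamma subunits. Its libraries stood at 56.8, 68.2 and 44.6 CPM in polarized and 51.8, 70.2 and 69.6 CPM in depolarized ones, and the log2 fold change of 0.11 ± 0.18 (SE) became -0.035 without pair C. For both regulatory genes, pair C was therefore the pair with the clear upward difference (0.56 and 0.41).

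Inpp5d encodes SHIP1, the 5-phosphatase of blood cells that removes PIP3. It was at 201, 201 and 151 CPM in polarized and 207, 232 and 220.2 CPM in depolarized libraries. It was the only one of the 8 whose groups did not overlap, every depolarized library lying above every polarized one. Over all tested genes 7.28% showed that pattern and 3.14% the opposite one, which 0 of the 8 showed. After TMM scaling the depolarized values were 215, 215 and 215 CPM and the polarized ones 199, 191 and 172 CPM. The means before scaling were 184 ± 29.0 and 220.0 ± 12.4 CPM (SD, n = 3), a fold of 1.15 with a 95% interval of 0.891 to 1.48, and edgeR's adjusted p of 1 does not show that the groups were alike.

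**Figure D2:**
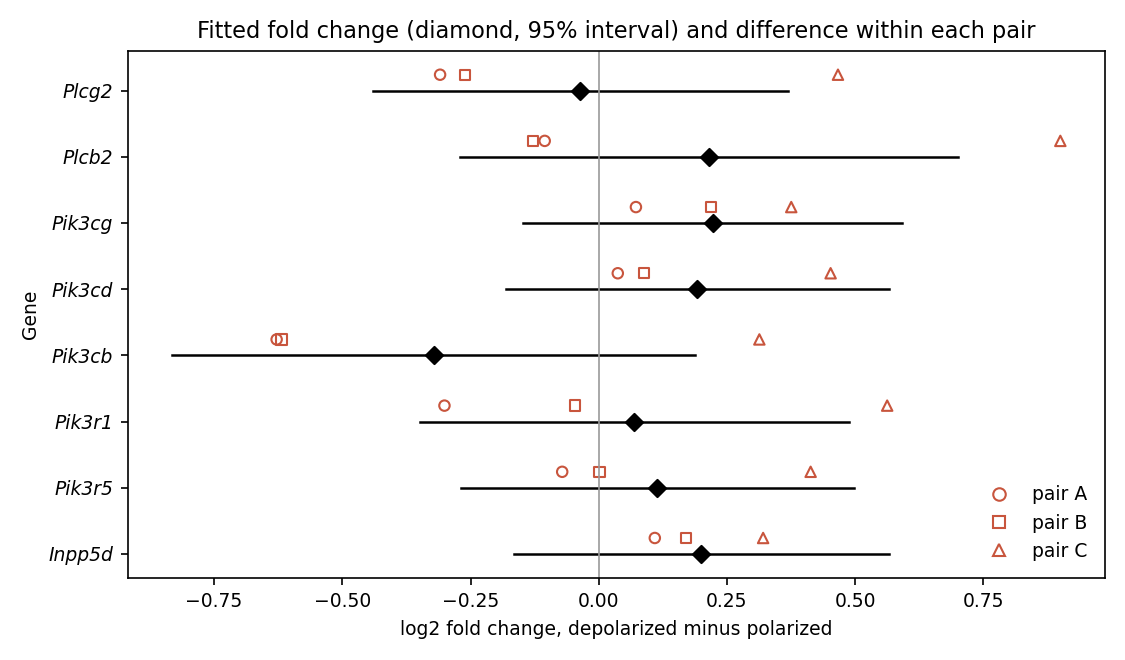
Fitted log2 fold change of each gene, depolarized minus polarized (diamonds, with 95% intervals as lines), and the difference of log2 CPM within each pair (open symbols). All 8 intervals cross 0, and the pair C triangle lies to the right of 0 for all 8 genes, between 0.31 and 0.90.

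The intervals, in which the variation is estimated partly from other genes, bound the size of the differences. For Plcg2, Pik3cg, Pik3cd, Pik3r1, Pik3r5 and Inpp5d both bounds of the 95% interval lay within -0.44 and 0.59 on the log2 scale. The interval of Pik3cb reached down to -0.83 and that of Plcb2 up to 0.70. These 2 genes also had the fewest counts of the 8, at 164 to 322 and 235 to 471 in a library.

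Pair C differed from the other pairs for these genes. In that pair 8 of 8 were higher in depolarized cells, with a median difference of 0.43, while in pair A 3 of 8 and in pair B 4 of 8 were higher, with medians of -0.09 and -0.02. Over all tested genes the share with a higher depolarized value was 50.5% in pair C, 49.2% in pair A and 49.8% in pair B. The polarized library of pair C had the lowest CPM of all 6 libraries for 8 of 8 genes, against 36.1% of tested genes. After TMM scaling it was the lowest for 7 of 8 (for Plcg2 depolarized A was lower), against 21.9%. In that library the CPM of the 8 genes was 0.514 to 0.725 times the mean of the other 5 libraries, with a median of 0.661, where the median tested gene was at 0.837.

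Gene length moves with this. The 8 genes are 4296 to 10079 bases long, and the median tested gene is 3572 bases long. Among the 3955 tested genes at least as long as the shortest of the 8, 50.7% had their lowest CPM in the polarized library of pair C, and among the 6016 shorter genes 26.5%. On the log2 scale, that library lay above the mean of the other 5 by a median of 0.25 for genes under 1 kb and below it for genes over 8 kb, with a median of -0.22. The 8 genes lay between -0.71 (Plcb2) and -0.22 (Plcg2), each below the median of its own length bin. That median was -0.10 for genes of 4 to 6 kb and -0.19 for genes of 6 to 8 kb. The same library also had the highest summed level of early-stage genes, at 5492 CPM. The part of length or of early-stage cells in the members' values was not tested. When a length trend was fitted and taken out per library, the log2 fold change was 0.22 for Pik3cg, -0.32 for Pik3cb and 0.20 for Inpp5d, the same as in the main fit to 2 decimals. The value that moved most among the 8 was that of Plcg2, from -0.036 to -0.063. Each of these fold changes is fitted over all pairs, so they do not show the part of length in pair C. The pair C differences after this removal, and the levels in its polarized library, are not given here. Over all genes, the fit without the length trend called 0 higher and 8 lower in depolarized cells, against 8 and 24 in the main fit.

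**Figure D3:**
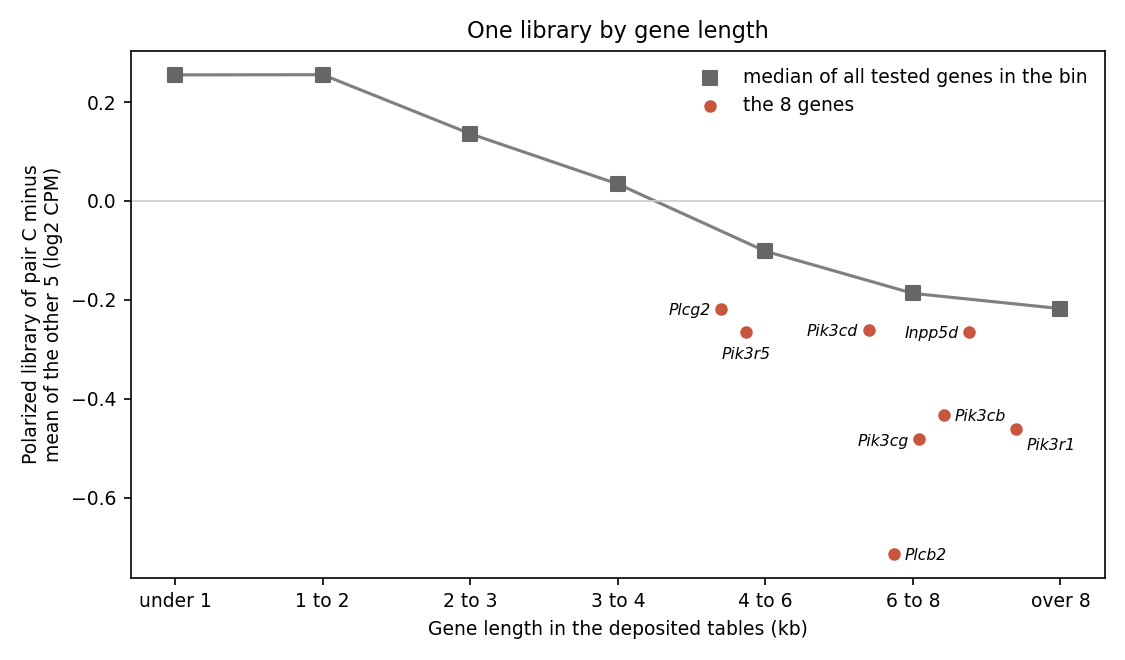
Difference of log2 CPM between the polarized library of pair C and the mean of the other 5 libraries (vertical axis) by gene length in kb (horizontal axis, bins; points within a bin are spread sideways for legibility). Grey squares are medians of all tested genes, from 0.25 in the shortest bin to -0.22 in the longest, and the 8 genes (red) lie between -0.71 and -0.22.

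Leaving out pair C changed 1 call. Pik3cb was then called lower in depolarized cells, at -0.63 ± 0.19 (SE) on the log2 scale (edgeR adjusted p = 0.0161), and over its 11 alternatives the adjusted p ran from 0.0161 to 1. That fit called 5.13% of all 10102 tested genes lower and 4.95% higher, so 1 of 8 lower and 0 of 8 higher have to be read against a large background. Pik3cb itself was higher in depolarized cells in pair C. The other 7 genes were called in no alternative.

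The composition of the PI3K catalytic genes is set within a library and does not depend on its scaling. A trend with gene length, as in the polarized library of pair C, can still enter shares. Its part in the shares here and below was not tested. Pik3cg and Pik3cd together held 89.0% to 93.5% of the summed RPKM of the class I catalytic genes. Pik3cg held 53.6% ± 2.57 (SD, n = 3) in polarized and 55.5% ± 4.64 in depolarized cells, and Pik3cd 36.3% ± 3.52 and 36.7% ± 3.56. Pik3ca, which encodes the ubiquitous p110 alpha, held 6.64% ± 0.910 and 5.37% ± 0.922. For Pik3cb the polarized shares were 3.33%, 4.25% and 2.82%, and the depolarized shares 2.16%, 2.53% and 2.64%. Every depolarized share of Pik3cb was thus below every polarized one, with differences of -1.17, -1.73 and -0.18 percentage points within the pairs. The exact two-sided permutation test, which did not use the pairs, gave p = 0.1, the smallest that 3 libraries against 3 allow, and 0.6 after adjustment over the 12 shares tested.

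**Figure D4:**
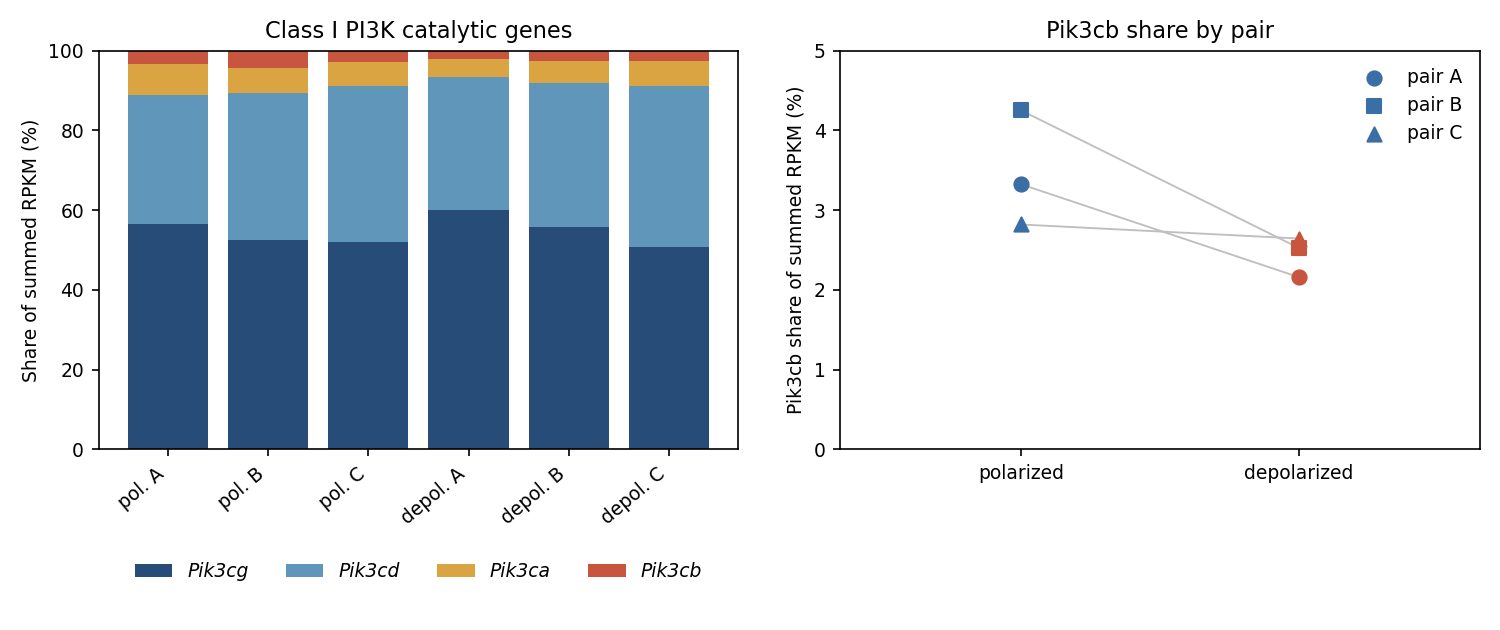
Left, share of the summed RPKM of 4 class I PI3K catalytic genes held by each gene in each library (pol., polarized; depol., depolarized), with Pik3cg and Pik3cd together at 89.0% to 93.5%. Right, the share of Pik3cb by pair, at 2.82% to 4.25% in polarized and 2.16% to 2.64% in depolarized libraries.

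Phospholipase C transcripts came mainly from 3 of 14 family genes. Plcg2 held 64.0% ± 1.83 (SD, n = 3) of the family's summed RPKM in polarized and 64.8% ± 2.38 in depolarized cells. Plcl2, a relative without phospholipase activity, held 23.0% to 27.6% in the 6 libraries. Plcb2 held 8.06%, 8.37% and 6.40% in polarized and 9.29%, 9.30% and 8.86% in depolarized libraries, so its shares did not overlap and were higher in 3 of 3 pairs. Within the pairs the differences were 1.23, 0.93 and 2.46 percentage points, the largest in pair C. The difference of the means was 1.54 percentage points, with an exact permutation p of 0.1 (two-sided) and 0.6 after adjustment. Of the other family genes, 10 did not pass the filter on low counts, among them Plcg1 at 0.466 CPM or less.

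The regulatory genes split between the p110 gamma partners and the others. Pik3r6, which encodes the second p110 gamma adaptor p84, held 36.2% ± 6.07 (SD, n = 3) of the summed RPKM in polarized and 33.7% ± 2.77 in depolarized cells, and Pik3r5 31.0% ± 4.06 and 31.6% ± 1.49. The PI3K adaptor gene Pik3ap1 held 17.3% ± 1.55 and 19.7% ± 1.26, and Pik3r1 13.9% ± 2.43 and 13.6% ± 0.477. Pik3r2 and Pik3r3, the other p85-type genes, held 1.50% and 0.0903% in polarized cells. All 6 shares overlapped between the groups, with exact permutation p from 0.2 to 1 (two-sided), and the difference of Pik3r1, Pik3r2, Pik3r5 and Pik3r6 changed sign when 1 pair was left out.

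The wider pathway was read from 9 lists of related genes, which hold 133 genes, the 8 included, and 113 of them were tested. By edgeR 0 of the 113 were called in either direction (0.0802% and 0.241% of all tested genes were), 5 had an unadjusted p under 0.05, and DESeq2 called 0. The median log2 fold change was 0.03 with 63 of the 113 above 0, and without pair C it was -0.10 with 44 above 0. The groups did not overlap for 7 genes, all higher in depolarized cells (6.19%, against 7.28% of all tested genes). The lowest CPM lay in the polarized library of pair C for 67 of the 113 (59.3%). That share was 36.1% over all tested genes and 50.7% over those at least as long as the shortest of the 8.

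Among genes upstream of the lipases and kinases, 24 of 25 were tested, and Gna15 and Gab2 had the lowest p. Gna15, the G protein alpha subunit gene that couples receptors to phospholipase C beta, averaged 4.08 ± 1.60 CPM in the polarized group and 2.65 ± 1.41 CPM in the other, and was fitted at -0.73 ± 0.32 (SE; edgeR adjusted p = 0.717). Gab2, a docking adaptor for p85, was at 23.4 ± 9.28 and 32.0 ± 7.21 CPM (fitted at 0.43 ± 0.20, with 0.741 as edgeR's adjusted p), and was above 0 in 3 of 3 pairs. The GTPase gene Rac2 was the most abundant of that list, at 6173 ± 1337 and 6401 ± 354 CPM. Plcb3, a further beta isoform with 124 counts in all, had the lowest p of its family (fitted at -1.29 ± 0.54, SE, with an adjusted p of 0.652 by edgeR).

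Of the PIP3 effector genes all 24 were tested. Rasa3, which encodes a GTPase-activating protein that binds inositol phosphates and phosphoinositides, had the lowest p of all lists. It was at 127, 151 and 126 CPM in polarized and 162, 228 and 220.2 CPM in depolarized libraries. Its groups did not overlap, its log2 fold change was 0.52 ± 0.17 (SE) and its edgeR adjusted p was 0.401. Cyth4, a PIP3-binding exchange factor gene and the most abundant of the list per length, was at 171 ± 16.8 and 217 ± 14.3 CPM, also without overlap (edgeR adjusted p 0.950). Mtor was at 4.91 ± 1.49 and 7.48 ± 2.28 CPM (edgeR adjusted p 0.871).

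Among lipid phosphatases 15 of 17 genes were tested. Inpp4a, which acts on PI(3,4)P2, the product of SHIP1, was the most abundant per length at a mean of 58.4 RPKM, above Inpp5d at 26.6 RPKM. It was at 572, 594 and 273 CPM in polarized and 419, 474 and 424 CPM in depolarized libraries, lower in pairs A and B and higher in pair C. Inpp5b (log2 fold change 0.35 ± 0.23, SE) was higher in pairs A and B and lower in pair C, and Inpp4b had a log2 fold change of -0.88 ± 0.50 (SE), with edgeR adjusted p of 0.950 and 0.883. In the list of PIP2 supply Pi4ka had the lowest p (log2 fold change 0.34 ± 0.23, SE), then Pip5k1a (0.22 ± 0.20), and Cdipt, the phosphatidylinositol synthase gene, was the most abundant at 24.2 RPKM.

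In the class II and III PI3K list Pik3c2b had a log2 fold change of -0.33 ± 0.21 (SE, edgeR adjusted p 0.941) and Pik3r4 of 0.42 ± 0.32 (SE, edgeR adjusted p 1), and Pik3c3 was the most abundant at 6.66 RPKM. Pik3ap1 had the lowest p of the regulatory list, at 14.7 ± 2.29 and 18.7 ± 2.72 CPM (edgeR adjusted p 1). In the inositol trisphosphate and diacylglycerol arm, 20 of 24 genes were tested and the protein kinase D genes Prkd2 (-0.45 ± 0.20, SE) and Prkd3 (-0.33 ± 0.19, SE) had the lowest p, with edgeR adjusted p of 0.723 and 0.884. Prkcd, a diacylglycerol-activated kinase gene and the most abundant there, had a log2 fold change of 0.01.

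Without pair C 20 genes of the 9 lists were called, 8 higher (7.08% of 113) and 12 lower (10.6%), in a fit that called 4.95% of all tested genes higher and 5.13% lower. The higher ones were Inpp5b, Pitpnb, Rasa3, Fgr, Cyth4, Lcp2, Inpp5k and Tec, from 0.36 (Lcp2) to 0.71 (Inpp5b) on the log2 scale. The lower ones were Prkcb, Gnb2, Gnai2, Dgkd, Inpp4a, Prkd2, Prex1, Pik3cb, Pdpk1, Pik3c2b, Pik3ca and Itpr2, from -0.63 (Pik3cb) to -0.37 (Itpr2). Of these 20, only Rasa3, Cyth4 and Prkd2 had the same sign in pair C, so 17 had the opposite one. The same count over all genes called without pair C was not made. The 17 are therefore not read as particular to these lists. Their edgeR adjusted p ran up to 0.0423, that of the inositol trisphosphate receptor gene Itpr2.

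Profiles over the 6 libraries were compared by Pearson's r of log2 CPM, among up to 2629 genes with a mean of at least 5. This is a description over shared libraries, and the part of gene length in it was not tested. Each r rests on 6 values, and the highest was picked from all genes searched. A value near 1 therefore does not by itself show co-expression. Each member was most like Mbnl1 (Pik3cg, r = 0.999), Pfn1 (Plcb2, 0.996), Itpripl2 (Pik3cb, 0.994), Arrb1 (Pik3r1, 0.993), Dnm2 (Pik3r5, 0.992), Spata13 (Inpp5d, 0.990), Bptf (Plcg2, 0.990) or Gak (Pik3cd, 0.985). The genes in second place were Stk10, Pbxip1, Wnk1, Kdm5b, Csk, Dnaja2, Csf2ra and Tapbp in the same order. Within the 8, Plcb2 and Pik3r1 were closest to each other (r = 0.933), as were Pik3cd and Pik3r5 (0.909) and Pik3cg and Inpp5d (0.865). Plcg2 was nearest to Pik3r5 (0.828) and Pik3cb to Pik3r1 (0.725), while Plcg2 and Pik3cg were nearly unrelated (-0.05), as were Pik3cb and Inpp5d (-0.04).

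The positions of the 8 genes in GRCm38, as the tables give them, are chromosome 8, 117498291 to 117635140 for Plcg2 (ENSMUSG00000034330), chromosome 2, 118707517 to 118728438 for Plcb2 (ENSMUSG00000040061), chromosome 12, 32173473 to 32208659 for Pik3cg (ENSMUSG00000020573) and chromosome 4, 149649168 to 149702571 for Pik3cd (ENSMUSG00000039936). The others are chromosome 9, 99036654 to 99140621 for Pik3cb (ENSMUSG00000032462), chromosome 13, 101680563 to 101768217 for Pik3r1 (ENSMUSG00000041417), chromosome 11, 68432121 to 68497849 for Pik3r5 (ENSMUSG00000020901) and chromosome 1, 87620312 to 87720507 for Inpp5d (ENSMUSG00000026288). The exons of 0 of the 8 overlapped an exon of another gene on either strand in GENCODE M21. Their counts cover the exons of all annotated forms, so isoforms of one gene, such as the p85 alpha forms of Pik3r1, are not told apart.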

How the data were processed

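RNA of 6 sorted neutrophil libraries was measured by sequencing. The SMARTer Ultra-Low kit was used, per the labels' protocols. STAR 2.0.4b, featureCounts 1.45, Subread, bcl2fastq and build GRCm38 are named, per the submitters' processing notes. Strand setting and the handling of multiply mapped reads were not found in the labels. The deposited counts are raw, whole read counts for each gene. The deposited CPM values equal the counts scaled to the library total (largest difference 4.8e-10), and the deposited RPKM values are those CPM per kilobase of the listed length. Symbols were matched for 40254 of 41388 genes.

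Counts were tested with edgeR 4.0.16 in R 4.3.3: filterByExpr (9971 genes), TMM factors, quasi-likelihood F test, replicate code as a block, 2 residual degrees of freedom, Benjamini-Hochberg adjustment over all tested genes, called under 0.05. Standard errors were derived from F and the log2 fold change. Pair differences use log2 CPM with TMM factors and a prior count of 2. Shares of RPKM were compared by exact permutation tests over libraries that did not use the pairs (SciPy 1.17.1). Pairing rests on the series' design text. Deviations from group means correlated across genes at r = 0.08, 0.27 and 0.03 within pairs A, B and C, and at -0.22 to 0.13 between libraries of unlike pairs (0.13 for polarized C with depolarized A), so same-code libraries of A and C did not stand out. In titles the depolarized library of pair B carries run label 1 and the others 2. What the label means is not stated, and run was not entered as a batch. A term for run would leave the group difference to pairs A and C, as leaving out pair B does. In the blocked edgeR fit the group difference was set against the variation left within pairs, with that variation estimated partly from other genes. Its standard errors and intervals therefore do not rest on the 2 residual degrees of freedom of a gene alone. P-values of all tests refer to these libraries only. Libraries of a group differed by more than counting noise (chi-square per degree of freedom at least 29.1). The fit was tested on simulated data. Alternatives included DESeq2 1.42.0.

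The 8 genes, the lists and the tests were chosen with earlier results of these data known. Genes named from the wider lists by rule are those called (none), the 2 with the lowest p and the most abundant per length in each list, and for each of the 8 the 2 with the most similar profile. The genes called without pair C, and Plcl2, Plcg1, Pik3ca, Pik3r2 and Pik3r3 in the family shares, were named after their values were seen.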

Additional observations from a re-analysis of the deposited data

How the results depend on the processing

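Over all genes 8 were called higher and 24 lower. DESeq2 with the replicate block called 16 higher, DESeq2 without it 5, no filter on low counts 50 higher and 96 lower, the stricter filter 3 and 6, and removal of the length trend 0 and 8. Without the replicate block edgeR called 0 in either direction (unadjusted p under 0.05 for 511 genes; 656 in the blocked fit). Leaving out 1 pair gave 9 to 500 higher and 36 to 518 lower, with 500 and 518 without pair C and 25 and 74 without pair A. None of the 8 genes was called under 10 of 11 alternatives, block or no block. Leaving out a pair gave 0 to 1 called lower among them (Pik3cb, without pair C), and 0 to 8 higher and 0 to 12 lower among the wider lists. With a pair left out, log2 fold changes ran from -0.29 to 0.10 for Plcg2, -0.12 to 0.40 for Plcb2, -0.17 to 0.26 for Pik3r1 and -0.035 to 0.21 for Pik3r5, so these signs are not settled. Pik3cg (0.15 to 0.30), Pik3cd (0.06 to 0.27), Inpp5d (0.14 to 0.25) and Pik3cb (-0.63 to -0.16) kept theirs under all 11 alternatives. Of the shares, with a pair left out the difference in percentage points ran from -1.83 to 0.53 for Pik3r1, -0.68 to 0.22 for Pik3r2, -1.15 to 2.32 for Pik3r5 and -4.17 to 0.59 for Pik3r6. The other 8 shares kept their sign, as did all 12 with counts in place of RPKM. The cause of these changes was not tested, and 3 pairs limit every test here.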
